A study of Mus musculus with 9 samples.

Results

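The genes described here encode the proteins of the nuclear pore complex, the channel through the nuclear envelope, and the soluble receptors that carry proteins and RNA through it. They were chosen by symbol alone, as rows of the deposited count table that begin with Nup and a digit, Ipo and a digit, Xpo, Kpna or Kpnb and a digit, or Tnpo and a digit, and that had at least 10 counts in 3 or more libraries. The table lists 24421 genes, of which 45 matched the symbols and 42 of these also had the counts, 20 nucleoporin genes and 22 receptor genes. Kpna7, an importin alpha gene, had 0 counts in all 9 libraries, Nup62cl had 4 counts in total, and the read-through row Nup62-il4i1 had at most 8 in a library, so these 3 rows were not kept.

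RNA was sequenced from myeloid blast-like mouse cells on a C57BL/6 background, grown from lineage-depleted bone marrow for 5 days in interleukin 3, interleukin 6 and stem cell factor. There were 3 groups of 3 libraries. Tet2-/-Flt3ITD cells, whose genotype combines loss of Tet2, a gene for DNA demethylation, with the leukaemia-associated duplication in the growth factor receptor gene Flt3, were given SHP099 for 24 h or vehicle, and wild-type (WT) cells were given vehicle. The compound SHP099 binds and inactivates the phosphatase SHP2, product of Ptpn11, which passes growth factor signals on towards RAS and ERK. The mutant cultures came from 3 mice, and SHP099 and vehicle libraries with the same number are taken as the same culture split in 2 arms; the labels name no individual mice for the WT cultures. Neither the dose of SHP099 nor the age of the mice is given in the sources used here, and no WT culture received the drug.

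A nuclear pore is built from rings of scaffold nucleoporins, among them the Y-shaped complex and the inner ring, which hold a central channel filled with nucleoporins rich in phenylalanine-glycine (FG) repeats. Filaments reach from the pore into the cytoplasm and a basket reaches into the nucleus. Importins and transportins bind cargo in the cytoplasm and release it in the nucleus on meeting the small GTPase Ran bound to GTP, and exportins bind cargo together with Ran and release it outside. Cells that grow and divide need pores for each new nucleus and a large traffic of ribosomal proteins and ribosomal subunits, and the gene of 1 pore protein, Nup98, is a recurrent fusion partner in myeloid leukaemia.

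Total counts per library were 41053983 to 45810089 in SHP099-treated mutant cultures, 30982845 to 41567622 in mutant vehicle cultures and 27242168 to 40681117 in WT cultures. As a check of the labels, Tet2 averaged 12.4 ± 1.28 CPM (counts scaled to a common library size; SD, n = 3 in each group) in SHP099-treated mutant, 15.5 ± 1.30 CPM in mutant vehicle and 33.2 ± 1.48 CPM in WT cultures. All 7 myeloid progenitor markers, Mpo and Elane among them, passed the count filter in these cultures, and of 5 lymphoid markers 1 did. All 10 neutrophil, 8 mast and basophil, 7 megakaryocyte and 5 monocyte markers passed as well, so passing does not single out progenitor cells. The 45S ribosomal RNA precursor Rn45s took 4.33% of the counts of SHP099 replicate 3 and 0.276% to 0.734% of those of the other 8 libraries.

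With SHP099 the pore and transport genes were lower across nearly all parts of the machinery. Of the 42 genes 32 fell, none rose, and 10 were not called, in edgeR's quasi-likelihood test at an adjusted p of 0.05 over 13270 genes, of which 13% fell and 8.81% rose. At an unadjusted p of 0.05, 34 were lower and none higher, where 19.6% and 16% of all genes were, and DESeq2 called 31 lower and none higher (13.4% and 11.9% of its genes). The changes were small: the median log2 fold change of the 42 was -0.22, against 0.00 over all genes tested, and those called ran from 1.09-fold to 1.62-fold lower. Without SHP099 replicate 3, the library with much Rn45s, 23 were lower and none higher, where 8.19% and 5.04% of all genes were. In bulk RNA fewer cells of a type and less RNA per cell cannot be told apart, and markers of neutrophils and other cells, given at the end, also differed between the groups.

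Untreated mutant cultures stood above WT in most of these genes. In mutant against WT vehicle cultures 29 of the 42 rose, none fell and 13 were not called, where 16.9% of all genes tested rose and 14.7% fell; at an unadjusted p of 0.05, 32 were higher and none lower (23.5% and 19.3% of all genes), and DESeq2 called 29 higher and none lower (14.6% and 15.8% of its genes). Their median log2 fold change was 0.17, against 0.02 over all genes. This comparison and the one with SHP099 share the mutant vehicle libraries, so a deviation of those libraries would enter both with opposite signs, and the overlap of their calls is not counted as a result. Set directly against WT vehicle cultures, SHP099-treated mutant cultures had 1 of the 42 genes higher and 7 lower, where 15.4% and 16.3% of all genes were, and a median log2 fold change of -0.04, against 0.00 over all genes. The higher gene was Nup37 and the lower ones were Xpo4, Ipo4, Tnpo2, Nup214, Tnpo1, Xpo6 and Nup188. These counts moved with single libraries and with the processing. Without SHP099 replicate 1, 3 were higher (12.2% of all genes), and 4 were lower without SHP099 replicate 2 (12.4%), without SHP099 replicate 3 (13.1%) or with no count filter (10.8%). With the length correction described further on, 3 were higher and 2 lower, where 12.4% and 13.6% of all genes were: Nup37, Nup62 and Xpo7 were the higher ones, and Xpo4 and Tnpo2 the lower ones.

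**Figure D1:**
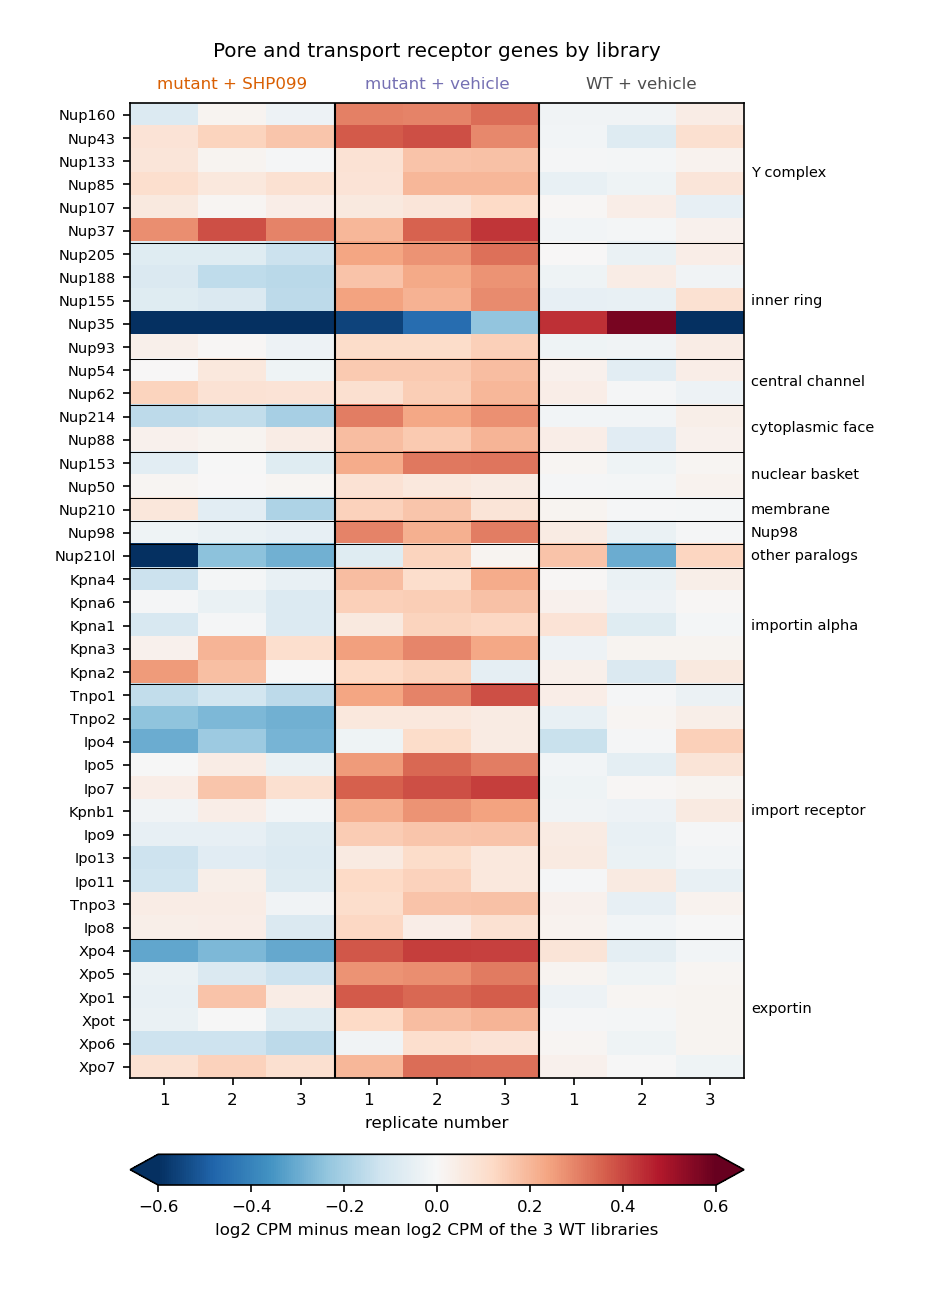
Log2 CPM of the 42 genes (rows, by role) in each of the 9 libraries (columns), as the difference from the mean of the 3 WT libraries, with red above and blue below. In 35 rows all 3 mutant vehicle libraries lie above all 3 WT libraries, and Nup35 and Nup210l, which have low counts, stand out from the rest.

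In most of the genes the mutant vehicle libraries stood apart from both other groups. In 38 of the 42 genes every SHP099 library lay below every vehicle library of the mutant, where 22.4% of all genes did; in none was it the other way round, where 18.3% of all genes were. In 35 every mutant vehicle library lay above every WT library, where 24.6% of all genes did, and in none below, where 20.5% did. Treated mutant and WT libraries were apart in 5 genes as higher and 12 as lower, where 24.4% and 23.5% of all genes were. Within the 3 cultures split between drug and vehicle, 38 genes were lower with SHP099 in all of them, against 31.4% of all genes tested. The 4 exceptions were Kpna2, higher in all 3 cultures where 32.2% of all genes were, and Nup37, Nup62 and Nup85, of mixed direction. The median difference of the 42 genes was -0.23, -0.21 and -0.26 log2 units in cultures 1, 2 and 3. Replicates of a group were close, with a median coefficient of variation over the 42 genes of 2.76% in SHP099-treated, 2.89% in mutant vehicle and 2.74% in WT cultures.

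Summed over the 42 genes, the level was 5909, 5985 and 5749.7 CPM in the SHP099 libraries, 6759, 6921 and 6931 CPM in the mutant vehicle libraries and 5950.4, 5855 and 6033 CPM in the WT libraries. The mutant vehicle libraries were the 3 highest, and the SHP099 and WT libraries overlapped.

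All 6 exportins were called lower with SHP099, where 13% of all genes were. In mutant against WT vehicle cultures 5 of the 6 were higher, where 16.9% of all genes were. With the length and GC correction described further on, Xpo1, Xpo4 and Xpo5 stayed called lower with SHP099, the calls of Xpot and Xpo6 ended, and the value of Xpo7 turned positive. Xpo1 (chromosome 11, 23256041 to 23298249, GRCm38), which encodes the main receptor for proteins with leucine-rich export signals, had 221, 256 and 235 CPM in SHP099-treated mutant cultures, 294, 289 and 293 CPM in mutant vehicle cultures and 223, 229.7 and 231 CPM in WT cultures. The 3 mutant vehicle libraries were alike and above all others, while the SHP099 libraries spread across and beyond the WT range. Xpo1 fell with SHP099 by 1.23-fold (log2 fold change -0.30 ± 0.05, SE; edgeR adjusted p = 0.0035) and was 0.36 ± 0.05 in mutant against WT (adjusted p = 0.0012). SHP099-treated mutant cultures differed from WT by 0.06 ± 0.05 (adjusted p = 0.4).

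Xpo4 (chromosome 14, 57577521 to 57665430), whose product exports SMAD3 and the translation factor eIF5A, moved most among the called genes. It stood at 32.0, 32.9 and 32.1 CPM with SHP099, 51.3, 52.8 and 52.6 CPM in mutant vehicle and 41.8, 38.1 and 39.2 CPM in WT cultures. None of the 3 groups overlapped, and the treated mutant cultures were the lowest. The log2 fold change was -0.69 ± 0.05 with SHP099 (1.62-fold lower; edgeR adjusted p = 0.00017), 0.40 ± 0.05 in mutant against WT (adjusted p = 0.00053) and -0.30 ± 0.05 in treated mutant against WT (adjusted p = 0.0019). Xpo5, the export receptor of microRNA precursors, had 119, 115 and 112 CPM with SHP099, 147, 148 and 152 CPM in mutant vehicle and 123, 120.1 and 123 CPM in WT cultures. Here too the SHP099 libraries were the lowest of the 9, though the difference from WT was not called (-0.08 ± 0.03, adjusted p = 0.094). Xpo5 fell with SHP099 (-0.37 ± 0.03, adjusted p = 0.00038) and was higher in mutant than in WT vehicle cultures (0.29 ± 0.03, adjusted p = 0.00062).

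The other 3 exportins changed less with the drug. Xpot, which carries transfer RNA, changed by -0.21 ± 0.04 (log2, SE), Xpo6, the exporter of actin, by -0.19 ± 0.04, and Xpo7, an exportin of broad cargo, by -0.18 ± 0.04. In mutant against WT vehicle cultures Xpot was 0.17 ± 0.04 and Xpo7 0.29 ± 0.04, both called higher, while Xpo6 was 0.06 ± 0.04 and not called (edgeR adjusted p = 0.3). Xpo6 was among the genes lower in treated mutant than in WT cultures (-0.14 ± 0.04, adjusted p = 0.027), a call lost without SHP099 replicate 2 or 3 or WT replicate 1 or 3 (adjusted p 0.052 to 0.063), without the count filter (0.059) and with the length correction (-0.10, 0.16). The Xpo7 call with SHP099 was lost without SHP099 replicate 1 or 3 or mutant vehicle replicate 2 or 3 (adjusted p 0.053 to 0.072).

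Of the 11 import receptors of the importin beta type 10 fell with SHP099, where 13% of all genes did. In mutant against WT cultures 6 were higher, where 16.9% of all genes were. Kpnb1 (chromosome 11, 97159714 to 97187881) encodes importin beta 1, the partner of importin alpha in classical import and the most abundant of the 42 transcripts per length. It had 645, 673 and 646 CPM with SHP099, 759.9, 788 and 774 CPM in mutant vehicle and 645, 640.5 and 678 CPM in WT cultures. Mutant vehicle libraries were above the other 6, and the SHP099 and WT libraries overlapped. The log2 fold changes were -0.24 ± 0.04 with SHP099 (SE; edgeR adjusted p = 0.0032), 0.24 ± 0.04 in mutant against WT (adjusted p = 0.0024) and -0.00 ± 0.04 in treated mutant against WT (adjusted p = 0.998).

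Ipo7 (chromosome 7, 110018274 to 110056609), an importer of ribosomal proteins among other cargo, showed the second largest genotype difference among the called genes, after Xpo4. Its level was 193, 211 and 201 CPM with SHP099, 241, 245 and 250.5 CPM in mutant vehicle and 185, 189 and 190.1 CPM in WT cultures. The SHP099 libraries lay between the other groups without touching either. Ipo7 was higher in mutant than in WT vehicle cultures (0.39 ± 0.04, SE; edgeR adjusted p = 0.00036), fell with SHP099 (-0.29 ± 0.04, adjusted p = 0.0014), and its difference between treated mutant and WT was not called (0.10 ± 0.04, adjusted p = 0.08). Ipo5, another importer of ribosomal proteins, averaged 338 ± 9.74 CPM with SHP099, 417 ± 13.2 CPM in mutant vehicle and 338 ± 17.0 CPM in WT cultures (SD, n = 3 each). Ipo5 fell with SHP099 (log2 fold change -0.30 ± 0.05, SE) and rose in mutant against WT (0.30 ± 0.05; edgeR adjusted p = 0.0022 and 0.0016).

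The transportins differed among themselves. Tnpo1 (chromosome 13, 98839019 to 98926384), which imports hnRNP A1 and other proteins with proline-tyrosine signals, had 151, 155 and 149.7 CPM with SHP099, 197, 206 and 219 CPM in mutant vehicle and 172, 166 and 163 CPM in WT cultures. The 3 groups did not overlap, with the treated libraries lowest. Tnpo1 fell with SHP099 (-0.45 ± 0.04, SE; edgeR adjusted p = 0.00039) and was higher in mutant than in WT (0.31 ± 0.04, adjusted p = 0.0011); the call of treated mutant below WT (-0.14 ± 0.04, adjusted p = 0.035) was lost without SHP099 replicate 1, 2 or 3 or WT replicate 1 or 2 (adjusted p 0.055 to 0.0986), without the count filter (0.064) and with the length correction (-0.09, 0.2). Its close relative Tnpo2 had 78.2, 76.8 and 75.9 CPM with SHP099, 96.8, 96.7 and 95.8 CPM in mutant vehicle and 89.7, 93.3 and 94.7 CPM in WT cultures. Tnpo2 fell with the drug (-0.33 ± 0.03, adjusted p = 0.00044) to a level under WT (-0.27 ± 0.03, adjusted p = 0.00074), while mutant and WT vehicle cultures were not called different (0.06 ± 0.03, adjusted p = 0.2).

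Ipo4, an importer of histones, followed the order of Tnpo2, with 35.8 ± 0.994 CPM with SHP099, 44.4 ± 2.12 CPM in mutant vehicle and 43.2 ± 4.13 CPM in WT cultures (SD, n = 3 each) and log2 fold changes of -0.31 ± 0.07 (edgeR adjusted p = 0.012), 0.04 ± 0.07 (adjusted p = 0.69) and -0.27 ± 0.07 (adjusted p = 0.017) in the 3 comparisons. The last of these calls was lost with the length correction (-0.20, adjusted p = 0.073). Exons of Ipo4 overlap 2583 nucleotides of a predicted gene on the same strand in the annotation, so its counts are uncertain. Other called import receptors had smaller log2 fold changes with SHP099: -0.22 for Ipo9, a histone importer, -0.17 for Ipo13, which carries cargo in both directions, -0.16 for Ipo11, and -0.13 for Tnpo3, which imports SR splicing factors. The calls of Ipo13 (without SHP099 replicate 1 or mutant vehicle replicate 2 or 3), Ipo11 (without SHP099 replicate 1 or 3 or mutant vehicle replicate 1, 2 or 3) and Tnpo3 (without SHP099 replicate 1, 2 or 3 or mutant vehicle replicate 2 or 3) were lost when those libraries were left out, with edgeR adjusted p of 0.0504 to 0.072 for Ipo13, 0.08 to 0.18 for Ipo11 and 0.085 to 0.15 for Tnpo3. Ipo8, the relative of Ipo7, was the 1 import receptor not called with SHP099 (-0.09 ± 0.04, edgeR adjusted p = 0.16), nor in mutant against WT (0.09 ± 0.04, adjusted p = 0.15).

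Of the 5 importin alpha genes, whose products recognise the classical nuclear localisation signal, 4 fell with SHP099 (13% of all genes) and Kpna2 did not. With the length and GC correction described further on, Kpna6 stayed called and the calls of Kpna1, Kpna3 and Kpna4 ended. With the culture number as a block as well, that of Kpna4 alone ended. Kpna2 (chromosome 11, 106988629 to 106999541) had 235, 222 and 196 CPM with SHP099, 213, 215 and 189 CPM in mutant vehicle and 201, 185 and 204 CPM in WT cultures. The 3 groups overlapped, and Kpna2 varied more between replicates than most of the 42. Its log2 fold change was 0.08 ± 0.07 with SHP099 (SE; edgeR adjusted p = 0.48), 0.07 ± 0.07 in mutant against WT (adjusted p = 0.53) and 0.15 ± 0.07 in treated mutant against WT (adjusted p = 0.15). Within cultures 1, 2 and 3 the difference was 0.14, 0.05 and 0.05 log2 units, positive in each, and with the culture number as a block the adjusted p was 0.101.

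Kpna6 fell with SHP099, with 96.0, 93.6 and 90.8 CPM against 106, 107 and 109 CPM in mutant vehicle cultures, and WT cultures had 98.0, 94.1 and 96.7 CPM. Its mutant vehicle libraries were the 3 highest of the 9. The log2 fold change was -0.20 ± 0.03 (SE; edgeR adjusted p = 0.0038) with SHP099 and 0.16 ± 0.03 (adjusted p = 0.0085) in mutant against WT. Kpna3 differed more by genotype, with 93.6, 106 and 98.6 CPM with SHP099, 109, 113 and 108 CPM in mutant vehicle and 90.1, 93.0 and 93.0 CPM in WT cultures. Kpna3 was higher in mutant than in WT vehicle cultures (0.26 ± 0.05, adjusted p = 0.0033), and its fall with SHP099 (-0.15 ± 0.05, adjusted p = 0.048) was lost without SHP099 replicate 1 or 3 or mutant vehicle replicate 1, 2 or 3 (adjusted p 0.088 to 0.21) and in DESeq2. Kpna4 changed by -0.23 ± 0.04 with SHP099 (adjusted p = 0.0061) and Kpna1 by -0.17 ± 0.05 (adjusted p = 0.03); the Kpna1 call was lost without SHP099 replicate 1 or 3 or mutant vehicle replicate 2 or 3 (adjusted p 0.092 to 0.12). In mutant against WT, Kpna4 was 0.17 ± 0.04 (adjusted p = 0.017), a call lost without mutant vehicle replicate 3 or WT replicate 2 (adjusted p 0.091 to 0.0984), and Kpna1 was not called (0.11 ± 0.05, adjusted p = 0.12).

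**Figure D2:**
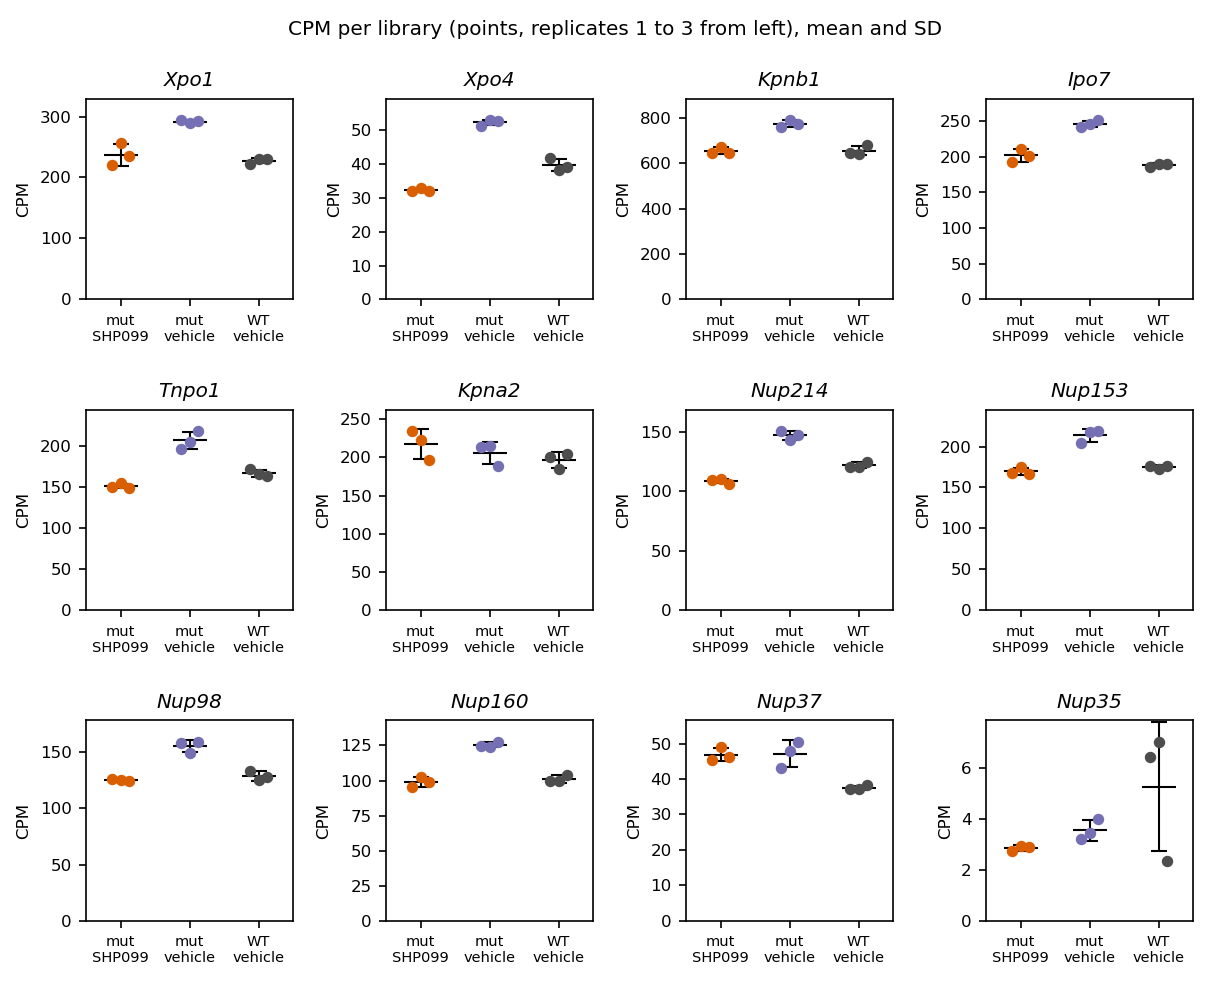
CPM of 12 of the genes in each library (points), with the mean and SD of the 3 libraries of each group. In 9 panels the mutant vehicle libraries are the 3 highest, while Kpna2 overlaps in all groups, Nup37 is high in both mutant groups, and the WT libraries of Nup35 are far apart.

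Among nucleoporins 12 of 20 fell with SHP099 and 15 rose in mutant against WT vehicle cultures, where 13% and 16.9% of all genes did. The inner ring, which surrounds the central channel, had 4 of 5 genes lower with the drug and 4 of 5 higher in the mutant. Nup205 (chromosome 6, 35177421 to 35247596), a large scaffold of this ring, had 201, 201 and 193 CPM with SHP099, 249, 255 and 265 CPM in mutant vehicle and 212, 205 and 217 CPM in WT cultures. Its relative Nup188 had 154, 147 and 146 CPM with SHP099, 184, 192 and 197 CPM in mutant vehicle and 161, 169 and 161 CPM in WT cultures. In both genes the 3 groups did not overlap and the SHP099 libraries were the lowest. Nup205 changed by -0.37 ± 0.04 with SHP099 and 0.28 ± 0.04 in mutant against WT (SE; edgeR adjusted p = 0.00047 and 0.0011), and Nup188 by -0.36 ± 0.04 and 0.22 ± 0.04 (adjusted p = 0.00059 and 0.0032). Nup188 was also called lower in treated mutant than in WT (-0.13 ± 0.04, adjusted p = 0.031), a call lost without SHP099 replicate 2 or 3 or WT replicate 2 (adjusted p 0.072 to 0.11), without the count filter (0.067) and with the length correction, where the value fell to -0.03 (adjusted p = 0.59).

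Nup155, which ties the inner ring to the membrane, followed with -0.35 and 0.24, and Nup93, the linker of the ring, moved least, with -0.12 ± 0.03 and 0.12 ± 0.04. The Nup93 calls were small and were lost when libraries were left out 1 at a time. With SHP099 the call was lost without SHP099 replicate 1, 2 or 3 or mutant vehicle replicate 1, 2 or 3 (edgeR adjusted p 0.067 to 0.16). In the fit by culture it was kept (-0.12, adjusted p = 0.015). The call by genotype was lost without mutant vehicle replicate 2 or 3 or WT replicate 1 or 2 (adjusted p 0.07 to 0.13). Nup35 was the least abundant nucleoporin of the core pore, with 2.74, 2.94 and 2.90 CPM with SHP099, 3.22, 3.46 and 4.02 CPM in mutant vehicle and 6.43, 7.05 and 2.36 CPM in WT cultures. WT replicate 3 was far below the other 2 WT libraries, on 225, 196 and 98 counts in WT replicates 1, 2 and 3, and lay under all mutant libraries. Nup35 was not called in any comparison (-0.32 ± 0.33, -0.55 ± 0.33 and -0.87 ± 0.33, adjusted p = 0.53, 0.23 and 0.068); without WT replicate 3 it was called lower in mutant than in WT vehicle cultures (-0.94, adjusted p = 0.0025), and in the fit by culture it was called lower with SHP099 (adjusted p = 0.042). Treated mutant against WT was called lower without WT replicate 3 (-1.24, adjusted p = 0.0011) and by DESeq2 (-0.89, adjusted p = 0.026). Its exons overlap 131 nucleotides of Dusp19 on the same strand.

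The Y complex, the outer scaffold, had 2 of 6 genes lower with the drug, the lowest share of the classes with 5 or more genes. This order did not hold in the fit with the length and GC correction described further on and no culture block. There Nup43, Nup85 and Nup160 were called lower, while of the importin alpha genes only Kpna6 was (9.25% of all genes). In the mutant 5 of 6 Y complex genes were higher. Of all genes 13% were lower with the drug and 16.9% higher in the mutant. Nup160 (chromosome 2, 90677215 to 90736328) had 95.5, 102 and 98.9 CPM with SHP099, 125, 124 and 128 CPM in mutant vehicle and 99.7, 99.7 and 104 CPM in WT cultures. Mutant vehicle libraries stood apart above the rest, and SHP099 and WT libraries overlapped. Nup160 changed by -0.34 ± 0.04 with SHP099 (SE; edgeR adjusted p = 0.00053), 0.31 ± 0.04 in mutant against WT (adjusted p = 0.00062) and -0.03 ± 0.04 in treated mutant against WT (adjusted p = 0.52).

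Nup37, a small peripheral subunit of the Y complex, was higher than WT in treated and in untreated mutant cultures. It had 45.5, 49.0 and 46.1 CPM with SHP099, 43.1, 48.0 and 50.5 CPM in mutant vehicle and 37.1, 37.2 and 38.2 CPM in WT cultures. Both mutant groups lay above all WT libraries and overlapped each other. Nup37 was 0.33 ± 0.06 in mutant against WT (edgeR adjusted p = 0.0034), 0.32 ± 0.06 in treated mutant against WT (adjusted p = 0.0043), the 1 gene of the 42 called higher there, and -0.01 ± 0.06 with SHP099 (adjusted p = 0.92). With the length correction these were 0.29, 0.18 and -0.11 (adjusted p = 0.0051, 0.039 and 0.21). Nup43, the other peripheral subunit, had 29.4, 30.5 and 31.2 CPM with SHP099, 35.9, 36.3 and 33.9 CPM in mutant vehicle and 27.5, 26.3 and 29.7 CPM in WT cultures. It was higher in the mutant (0.34 ± 0.06, adjusted p = 0.0026), and its fall with the drug (-0.22 ± 0.06, adjusted p = 0.024) was lost without SHP099 replicate 1, 2 or 3 or mutant vehicle replicate 1 or 2 (adjusted p 0.054 to 0.09).

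The stem and arm subunits Nup133, Nup85 and Nup107 changed by -0.12 ± 0.04, -0.08 ± 0.05 and -0.05 ± 0.04 with SHP099, none called (edgeR adjusted p = 0.052, 0.27 and 0.38). Nup133 was called in the fit by culture (adjusted p = 0.025) and without mutant vehicle replicate 1. By genotype Nup133 (0.14 ± 0.04) and Nup85 (0.16 ± 0.05) were called higher, on adjusted p of 0.018 and 0.025. These calls were lost for Nup133 without mutant vehicle replicate 2 or 3 or WT replicate 2 (adjusted p 0.076 to 0.095), and for Nup85 without mutant vehicle replicate 2 or 3 or WT replicate 1 or 2 (adjusted p 0.076 to 0.12). Nup107 was not called (0.08 ± 0.04, adjusted p = 0.104).

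At the cytoplasmic face, Nup214 and Nup88 form a platform for the last step of export, and both fell with SHP099 and were higher in the mutant. Nup214 (chromosome 2, 31974436 to 32053975), an FG nucleoporin, had 109, 110.0 and 106 CPM with SHP099, 150.4, 143 and 147 CPM in mutant vehicle and 120.3, 120.3 and 125 CPM in WT cultures. The groups did not overlap and the SHP099 libraries were the lowest. Its log2 fold changes were -0.44 ± 0.04 with SHP099 (SE; edgeR adjusted p = 0.00023), the largest of the called nucleoporins, 0.27 ± 0.04 in mutant against WT (adjusted p = 0.00087) and -0.17 ± 0.04 in treated mutant against WT (adjusted p = 0.0071). The last was -0.05 and no longer called with the length correction (adjusted p = 0.35). Nup88 had 138, 138 and 140.4 CPM with SHP099, 155, 152 and 157 CPM in mutant vehicle and 139.9, 130.1 and 139 CPM in WT cultures. It changed by -0.15 ± 0.04 with SHP099 (adjusted p = 0.017), lost without SHP099 replicate 1 or 2 or mutant vehicle replicate 3 (adjusted p 0.064 to 0.076), and by 0.18 ± 0.04 in mutant against WT (adjusted p = 0.0063).

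At the nuclear face, Nup153 anchors the basket and Nup50 helps release cargo from importin alpha. Nup153 (chromosome 13, 46679905 to 46727940) had 167, 175 and 167 CPM with SHP099, 204, 218 and 219 CPM in mutant vehicle and 176, 172 and 177 CPM in WT cultures. Its mutant vehicle libraries were above all others and its SHP099 and WT libraries overlapped. Nup153 changed by -0.33 ± 0.04 with SHP099 (SE; edgeR adjusted p = 0.00067) and 0.29 ± 0.04 in mutant against WT (adjusted p = 0.001). Nup50 had 163, 162 and 163 CPM with SHP099, 172, 169 and 167 CPM in mutant vehicle and 161, 160.4 and 164 CPM in WT cultures. It was called in neither comparison (-0.06 ± 0.03 and 0.07 ± 0.03, adjusted p = 0.21 and 0.13), although its groups did not overlap between mutant vehicle and either of the others.

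Nup98 (chromosome 7, 102119398 to 102210176), whose transcript encodes a precursor cleaved into the FG protein NUP98 and the Y complex subunit NUP96, had 126, 125 and 125 CPM with SHP099, 158, 149 and 159 CPM in mutant vehicle and 133, 125 and 128 CPM in WT cultures. The SHP099 libraries were almost identical and overlapped the WT range, with mutant vehicle above both. The log2 fold changes were -0.31 ± 0.04 (SE; edgeR adjusted p = 0.00087), 0.27 ± 0.04 (adjusted p = 0.0012) and, for treated mutant against WT, -0.04 ± 0.04 (adjusted p = 0.47).

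The central channel had small changes. Nup62 had 201, 194 and 194 CPM with SHP099, 196, 203 and 210.0 CPM in mutant vehicle and 188, 182 and 179 CPM in WT cultures, and Nup54, its partner in the channel, had 49.6, 51.8 and 48.7 CPM with SHP099, 55.3, 55.2 and 56.4 CPM in mutant vehicle and 50.5, 47.4 and 50.9 CPM in WT cultures. SHP099 and vehicle libraries of the mutant overlapped for Nup62 and not for Nup54. With SHP099 Nup62 changed by -0.05 ± 0.04 (edgeR adjusted p = 0.42) and Nup54 by -0.15 ± 0.04 (adjusted p = 0.027), and the Nup54 call was lost without SHP099 replicate 1 or 3 or mutant vehicle replicate 1, 2 or 3 (adjusted p 0.058 to 0.11). In mutant against WT they were called higher, Nup62 at 0.15 ± 0.04 (adjusted p = 0.017) and Nup54 at 0.17 ± 0.04 (adjusted p = 0.015). Without mutant vehicle replicate 2 or 3 or WT replicate 2 or 3 the Nup62 call was lost (adjusted p 0.06 to 0.1), and without mutant vehicle replicate 3 or WT replicate 2 that of Nup54 (adjusted p 0.07 to 0.071).

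Nup210, a membrane-spanning glycoprotein of the pore, had 433, 395 and 363 CPM with SHP099, 456, 464 and 436 CPM in mutant vehicle and 418, 412 and 410.0 CPM in WT cultures. The SHP099 libraries ran from above the WT range to below it. Its call with SHP099 was at the threshold (-0.19 ± 0.06, SE; edgeR adjusted p = 0.049) and was lost without SHP099 replicate 2 or 3 or mutant vehicle replicate 1, 2 or 3 (adjusted p 0.081 to 0.15), and it was not called by genotype (0.13 ± 0.06, adjusted p = 0.13). The paralog Nup210l was low, with 2.16, 3.36 and 3.26 CPM with SHP099, 3.79, 4.36 and 4.02 CPM in mutant vehicle and 4.49, 3.24 and 4.35 CPM in WT cultures. Its log2 fold change with SHP099 was -0.47 ± 0.19 (adjusted p = 0.0998), and in the fit by culture the adjusted p was 0.0028.

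**Figure D3:**
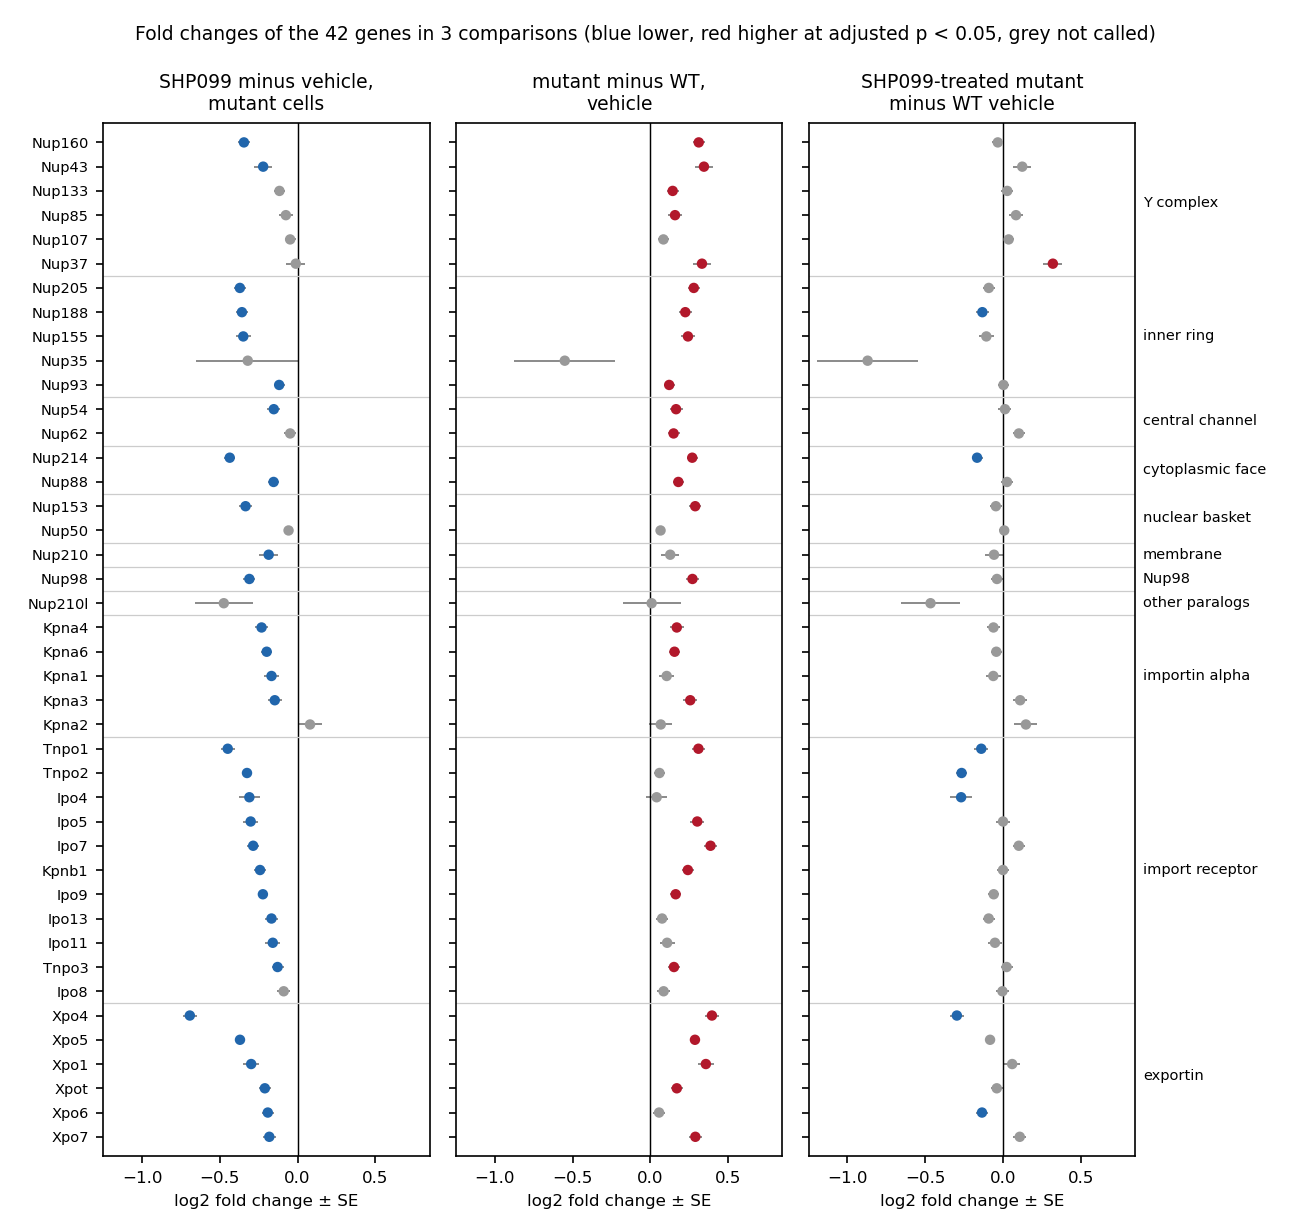
Log2 fold change with its standard error for each of the 42 genes, by role, in SHP099 against vehicle in mutant cultures (left), mutant against WT vehicle cultures (middle) and SHP099-treated mutant against WT vehicle cultures (right). Blue points passed an adjusted p of 0.05 as lower, red ones as higher, and grey ones did not pass, giving 32 blue points on the left, 29 red in the middle, and 7 blue and 1 red on the right.

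Fitted with the culture number as a block, SHP099 against vehicle called 35 of the 42 lower and none higher, where 21.3% of all genes fell and 21.5% rose. All 32 genes called without the block were among them, and Nup133, Nup210l and Nup35 joined. Among the 32 were Nup210, Kpna3, Ipo11 and Tnpo3, whose calls without the block were lost when single libraries were left out. Their adjusted p in the edgeR fit with the block was 0.00072, 0.0041, 0.0042 and 0.0082. Xpo4 had the smallest adjusted p of the 42 in this fit. Without the count filter 26 were lower and none higher, where 8.15% and 6.27% of all genes were, and the calls of Ipo11, Kpna3, Nup210, Nup54, Nup93 and Tnpo3 were lost.

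Transcript length moved with the drug result. The 42 genes have long transcripts, with a median of 5676.5 nucleotides (longest coding transcript, GENCODE M21) against 3283 for all genes tested, and over 12801 genes longer transcripts had lower fold changes with SHP099 (Spearman's rho -0.33 across genes, which share libraries and are no replicates). Within the 42 genes rho was -0.55 (n = 42). With a smooth trend on length and GC content removed from each library, 23 of the 42 were called lower and none higher, where 9.25% and 7.68% of all genes were, and the median log2 fold change of the 42 was -0.15. Of the 10 calls lost, some values stayed near their size, as for Ipo13 (-0.13), Ipo11 (-0.12) and Tnpo3 (-0.10), and others shrank more, to -0.11 for Xpot, -0.10 for Kpna3, -0.09 for Kpna1, -0.04 for Nup210 and -0.03 for Xpo6. Kpna4 and Xpo7 were the other 2. Nup85 was gained (-0.14, edgeR adjusted p = 0.037).

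The correction moved Xpo7 and Kpna4 most: Xpo7, assigned the longest transcript of the 42 at 15121 nucleotides, turned to 0.12 (edgeR adjusted p = 0.15), and Kpna4 came to -0.02 (adjusted p = 0.81). This annotated transcript may not be the one used in these cells, and the corrected value of Xpo7 depends on it. With the culture block as well, 31 were lower and 1 higher, where 18.6% and 21.8% of all genes were; the higher gene was Xpo7 (0.12, adjusted p = 0.025). Xpo1 stayed called in both corrected fits, at -0.18 and -0.18 (adjusted p = 0.021 and 0.00021). By genotype the length relation was weaker (rho 0.07 over all genes and 0.25 over the 42), and 24 of the 42 were called higher and none lower after the correction, where 14.5% and 15.4% of all genes were. The calls lost were those of Kpna4, now 0.00, Nup155, 0.11, Xpo7, 0.14, Xpot, 0.10, and Nup133, 0.10. The part of transcript length in the drug result beyond these fits was not tested.

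Cut at 3500 nucleotides, a value chosen after seeing the data, 28 of 32 longer genes of the group fell with SHP099, where 21.7% of all genes of that length did, and 4 of 10 shorter ones, where 5.81% did.

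**Figure D4:**
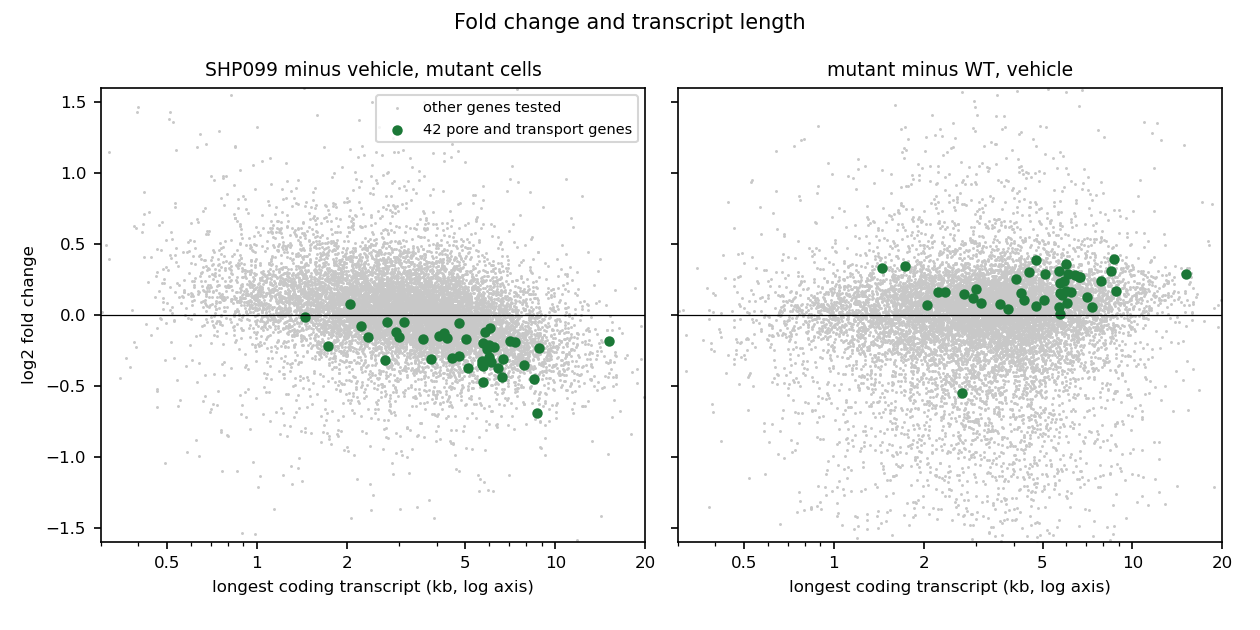
Log2 fold change against the length of the longest coding transcript (log axis) for 12801 genes (grey) and the 42 pore and transport genes (green), with SHP099 (left) and by genotype (right); 137 genes on the left and 294 on the right lie outside the axes. Almost all green points lie below 0 on the left and above 0 on the right, Nup35 being the low point on the right.

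Genes of the same machinery whose symbols fall outside the rule also had lower calls with SHP099 and higher calls in mutant against WT. The 30 such genes include further pore subunits, the Ran cycle and messenger RNA export factors. Of these, 12 fell with SHP099 and none rose, where 13% and 8.81% of all genes did (edgeR, adjusted over all genes). In mutant against WT vehicle cultures 18 were higher and none lower, where 16.9% and 14.7% of all genes were. At an unadjusted p of 0.05, 1 was higher and 15 lower with SHP099, where 16% and 19.6% of all genes were. The median log2 fold changes of the 30 were -0.10 with SHP099 and 0.18 in mutant against WT. Calls of the 30 genes were made without the length and GC correction, and the part of transcript length in them was not tested. In treated mutant against WT 5 were higher, Cse1l among them, and 1 lower, Ahctf1, where 15.4% and 16.3% of all genes were. Ahctf1, which recruits the Y complex to chromatin, had 168 ± 5.10 CPM with SHP099, 218 ± 3.45 CPM in mutant vehicle and 189 ± 4.18 CPM in WT cultures (SD, n = 3 each), a log2 fold change of -0.37 ± 0.04 with SHP099 (adjusted p = 0.00039). Tpr, the filament of the basket, changed by -0.31 ± 0.04 and 0.23 ± 0.04, and Ranbp2, the filament of the cytoplasmic face, by -0.31 ± 0.05 and 0.33 ± 0.05, all called.

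In the Ran cycle, Cse1l, which returns importin alpha to the cytoplasm, changed by -0.25 ± 0.03 with SHP099 (edgeR adjusted p = 0.0012) and 0.36 ± 0.03 in mutant against WT (adjusted p = 0.00023). Rcc1, the exchange factor that loads Ran with GTP, changed by -0.15 ± 0.04 and 0.23 ± 0.05, both called. Ran itself averaged 569.6 ± 11.4 CPM with SHP099, 587 ± 27.9 CPM in mutant vehicle and 521 ± 22.1 CPM in WT cultures, was higher in the mutant (0.17 ± 0.05, adjusted p = 0.022) and was not called with SHP099 (-0.04 ± 0.05, adjusted p = 0.56). Sec13 and Aaas, pore subunits, and Alyref, an export adaptor, were called in none of the 3 comparisons, with log2 fold changes of 0.02 ± 0.04, 0.00 ± 0.03 and 0.04 ± 0.04 with SHP099.

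Levels per length (CPM per kilobase) ordered the genes in much the same way in all groups. Kpnb1 led with 111 ± 2.68 CPM per kilobase with SHP099, 131 ± 2.36 in mutant vehicle and 111 ± 3.53 in WT cultures (SD, n = 3 each), and Kpna2 came next with 106 ± 9.57, 100.3 ± 6.99 and 95.7 ± 5.04 CPM per kilobase in the same groups. These leaders did not differ beyond their spread with SHP099, and they did in the other groups. Ipo5 was the third and Nup62, the most abundant nucleoporin transcript, the fourth, and with SHP099 these neighbours were within their spread. Xpo1 had 39.5 ± 2.95 CPM per kilobase with SHP099, 48.6 ± 0.37 in mutant vehicle and 37.9 ± 0.705 in WT cultures. Lowest were Xpo4 (3.72 ± 0.0567, 6.02 ± 0.0973 and 4.57 ± 0.219 CPM per kilobase in the same groups), Nup35 and Nup210l.

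Promoters are given as a description, and the E-box hexamer CACGTG is a site that MYC can bind with its partner MAX. Binding was not measured, and a part of MYC or of any other factor in these changes was not tested. RefSeq windows (GRCm38.p6) of 300 bases, 250 before to 50 after each start, matched 33 of the 42 genes. Both strands were searched for exact letters. CACGTG was found in 7 of the 33 (21.2%), against 11.5% of 10072 tested genes and 8.09% of all 27025 genes with a window. The ETS core CCGGAAG was found in 6 (18.2%, against 19.7% of tested genes and 9.93% of all), the palindromic NRF1 consensus in 4 (12.1%, against 2.30% and 1.07%), CCAAT in 18 (54.5%, against 42.8% and 41.1%) and GGGCGG in 24 (72.7%, against 67.1% and 38.2%). One CACGTG match overlapped a GGGCGG match, in Nup93. The 7 genes with CACGTG were Ipo4, Ipo7, Nup188, Nup54, Nup93, Tnpo2 and Xpot; all 7 fell with SHP099 and 5 were higher in the mutant. Of the 26 genes without it 19 fell and 18 were higher. Of all tested genes with CACGTG in the window 14.8% fell and 21.9% were higher, and of those without it 13% and 16.6%. The 250 bases before the start are given for 4 of them, 5′ to 3′ on the gene's strand, with CACGTG and CCGGAAG matches in capitals.
Ipo7, chr7:110018065-110018314, plus strand: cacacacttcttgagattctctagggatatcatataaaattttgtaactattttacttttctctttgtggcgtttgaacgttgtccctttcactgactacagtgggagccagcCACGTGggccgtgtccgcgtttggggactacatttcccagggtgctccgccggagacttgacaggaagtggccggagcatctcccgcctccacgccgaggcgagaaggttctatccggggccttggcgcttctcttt
Nup188, chr2:30286166-30286415, plus strand: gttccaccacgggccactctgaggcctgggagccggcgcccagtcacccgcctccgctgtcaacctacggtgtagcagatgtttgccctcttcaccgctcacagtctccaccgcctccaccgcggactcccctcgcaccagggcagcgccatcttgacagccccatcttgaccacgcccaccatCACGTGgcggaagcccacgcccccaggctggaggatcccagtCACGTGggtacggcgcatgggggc
Nup54, chr5:92435200-92435449, minus strand: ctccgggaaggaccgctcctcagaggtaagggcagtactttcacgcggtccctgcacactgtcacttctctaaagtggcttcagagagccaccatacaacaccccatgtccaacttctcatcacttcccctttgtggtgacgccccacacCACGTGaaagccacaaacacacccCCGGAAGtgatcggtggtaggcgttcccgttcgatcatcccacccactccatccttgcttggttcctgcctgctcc
Tnpo2, chr8:85036643-85036892, plus strand: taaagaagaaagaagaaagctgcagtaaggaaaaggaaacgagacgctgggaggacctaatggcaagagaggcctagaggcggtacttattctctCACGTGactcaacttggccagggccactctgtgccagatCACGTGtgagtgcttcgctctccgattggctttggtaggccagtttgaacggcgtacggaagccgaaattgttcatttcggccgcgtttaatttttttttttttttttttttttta
Ipo7 carries 1 E-box in this stretch, Nup188 and Tnpo2 carry 2 each, and Nup54 carries 1 E-box and 1 ETS core. Tnpo2 and Nup93 each have a further annotated start, and the 250 bases before that start hold no CACGTG.

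Markers of other cell types differed between the groups. Of all genes tested, 8.81% were called higher and 13% lower with SHP099, and 16.9% higher and 14.7% lower by genotype. The 10 neutrophil markers summed to 25453 to 30450.7 CPM with SHP099, 17598 to 18679.6 CPM in mutant vehicle and 24129 to 30551.5 CPM in WT cultures, 4 being called higher and none lower with SHP099 and 7 lower and 1 higher by genotype. Megakaryocyte markers summed to 1583 to 2122 CPM, 1289.8 to 1759 CPM and 2865 to 3608 CPM in the same groups, with 2 of 7 higher with SHP099 and 7 of 7 lower by genotype, and mast and basophil markers to 1603 to 2079 CPM, 1103 to 1563 CPM and 2102 to 2356 CPM, with 4 of 8 higher and 6 of 8 lower. Erythroid markers were lower by genotype in 5 of 5 tested members, with Hba-a1 and Hbb-bt at 0 counts in all libraries, and monocyte markers were higher in 2 of 5 and lower in 1 of 5 by genotype and higher in 2 of 5 with SHP099. Of 3 stromal and endothelial markers tested, 2 were lower by genotype and none changed with SHP099. Myeloid progenitor markers summed to 15081 to 21344 CPM with SHP099 and 14236 to 20807 CPM in mutant vehicle cultures. In WT cultures their sum was 12703 to 16217 CPM. Of these 7, 1 was higher with SHP099 and 1 by genotype, and none was lower in either. In treated mutant against WT 4 of the 7 were higher and none lower, where 15.4% and 16.3% of all genes were. The 15 proliferation markers summed to 5379 to 5579 CPM with SHP099, 5788 to 6028 CPM in mutant vehicle and 5562 to 5711 CPM in WT cultures, with the mutant vehicle libraries the 3 highest, as for the pore and transport genes. Of these markers 7 were lower and 1 higher with SHP099 at an unadjusted p of 0.05, where 19.6% and 16% of all genes were. After adjustment 2 of the 15 were lower and none higher with SHP099, where 13% and 8.81% of all genes were. In mutant against WT 1 was higher and none lower, where 16.9% and 14.7% of all genes were. The part of these shifts in the levels of pore and transport genes was not tested.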

How the data were processed

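Libraries were made from total RNA with a stranded TruSeq mRNA kit, per the labels' protocols. Build mm10 and the tools Subread, featureCounts, STAR and FastQC are named, with no version, per the submitters' processing notes. The deposited table holds raw counts per gene symbol for 24421 genes in 9 libraries. No source used here gives the annotation, the strand setting or the handling of reads that match several genes, so genes with close paralogs (Tnpo1 and Tnpo2, Ipo7 and Ipo8, the importin alpha genes) and members with exons overlapping another gene, 8 on the same strand (Ipo4, Nup188, Nup214, Nup35, Nup62, Tnpo2, Xpo4 and Xpo7) and 10 on the opposite one, are less certain. The column of SHP099 replicate 3 ends in I where the title ends in 1. P-values measure the spread between these libraries; for WT nothing says that they are separate animals. Replicates differed by more than sampling noise. The chi-square per degree of freedom was 113 and 116 for the pairs with SHP099 replicate 3, the library with much Rn45s. For all other pairs of a group it was 11.1 to 26.0.

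The deposited counts went into edgeR 4.0.16 (R 4.3.3). Its filterByExpr function, set by group with a minimum count of 10, left 13270 genes, all 42 members among them. TMM scaling was followed by 1 quasi-likelihood model of the 3 groups over 9 libraries, two-sided tests and Benjamini-Hochberg adjustment over all genes of a comparison. Standard errors were taken as the size of the log2 fold change over the root of its F statistic. The biological coefficient of variation was 9.04%, and total counts per library were 27242168 to 45810089. Coordinates and lengths are from GENCODE M21 on GRCm38 (23376 symbols matched). Same-numbered SHP099 and mutant vehicle libraries deviated together from their group means, with correlations of 0.54, 0.60 and 0.56 over genes (-0.36 to -0.23 for other numbers), and the series text says that the SHP099 and vehicle mutant cultures came from individual mice, so these numbers pair those libraries. Differences per culture were taken between log2 CPM values (prior count 2). The length and GC trend was a lowess (span 0.3) per library.

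Alternatives were RLE scaling, DESeq2 1.42.0, no count filter, at least 1 CPM in 3 libraries, each library left out, the 2 groups alone, a replicate block, and removal of the length trend with or without that block. The scripts were tested on simulated data. The members, roles and lists were chosen with earlier results of these data known. Genes with values per library were Xpo1, Kpnb1, Kpna2, Nup98 and Nup153, plus the 2 with the smallest p of each role in each of the first 2 comparisons; Nup35, Nup37 and the values given for other members were added after their values were seen. Protein sequences were not used here.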

Additional observations from a re-analysis of the deposited data

How the results depend on the processing

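Counts of called members kept within 1.5 times under most alternatives. With SHP099, members lower ranged from 22 to 27 with 1 library left out (8.11% to 9.91% of all genes), against 32, and from 23 to 35 over the other fits (8.15% to 21.3%); 18 were called in all 15 fits. With the length and GC trend removed and the replicate block 1 member, Xpo7, was called higher, and none in the other fits. In mutant against WT vehicle cultures, members higher ranged from 22 to 29 with 1 library left out (10.05% to 14.7% of all genes), against 29; with the replicate block, where mutant and WT libraries share only a number (same-number correlations -0.13 to -0.07), 17 were higher (5.63% of all genes), and 12 with the length and GC trend also removed (4.87%); 11 were called in all 15 fits. Members lower ranged from 0 to 1 with 1 library left out, the 1 being Nup35 without WT replicate 3. In SHP099-treated mutant against WT, members higher ranged from 1 to 3 (8.09% to 13% of all genes) with 1 library left out. Those lower ranged from 4 to 7 (12.4% to 13.9%) in the same fits. Lower members were 4 without a count filter (10.8% of all genes) and 4 with the replicate block (12.6%). With the length and GC trend removed 2 were lower (13.6%) and 3 higher (12.4%). Adding the block to that gave 2 lower (9.27%) and 2 higher (7.36%). The causes of these shifts were not tested. Over all genes, RLE scaling gave 1908 higher and 2098 lower in mutant against WT, against 2248 and 1951. Xpo7 was the 1 member called in both directions, lower with SHP099 and higher in that comparison with the length and GC trend removed and the replicate block. Depth limits most the values of Nup35 and Nup210l, which had 90 to 225 counts in each library.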
